A study of Rattus norvegicus with 6 samples.

Results

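The miR-10, miR-99/100 and miR-125 family of microRNAs (miRNAs), together with miR-196, was followed in the rat kidney after exposure to aristolochic acid (AA), a compound of Aristolochia plants that binds to DNA and damages renal tubules. Its members here were the probes whose rat name was rno-miR-10a, rno-miR-10b, rno-miR-99a, rno-miR-99b, rno-miR-100, rno-miR-125a, rno-miR-125b, rno-miR-196a or rno-miR-196b, either arm, with star strands left out. They came to 12 of the 5560 miRNA probes on each array and 12 of the 679 probes with a rat name. Of these, 10 reached an intensity of 32 in the deposited normalized values on at least 1 array and were tested, among 1132 tested probes in all and 180 with a rat name. Each member had 2 spots per array. By the position of their genes, 5 members were Hox-linked (both arms of miR-10a, and miR-10b, miR-196a and miR-196b), and 7 were let-7-linked (miR-99a, miR-99b, miR-100 and both arms of miR-125a and miR-125b).

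Kidney RNA of 6 male Big Blue rats, a transgenic line on the Fisher 344 strain, was hybridised with 1 array per animal. The control group held 3 untreated animals, replicates 13, 14 and 15. The AA group held 3 animals, replicates 19, 20 and 21, given AA as its sodium salt by gavage at 10.0 mg/kg. Dosing began at an age of 6 weeks and ran for 12 weeks, 5 times a week, with the kidneys taken 1 day after the last dose. Both groups carried the same transgene, and the controls were not described as receiving a vehicle. The RNA was from whole pieces of kidney, so fewer cells of a type and less miRNA per cell cannot be told apart.

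A miRNA guides a repressor complex to messenger RNAs mainly through its seed, a short stretch near its 5′ end that pairs with the target. The miR-10 and miR-196 genes lie within the Hox clusters, whose genes set position along the body axis, and miR-196 is known to direct the cleavage of Hoxb8 mRNA. The miR-99/100 and miR-125 genes lie in 3 clusters, each with a let-7 gene between them. Known targets are Mtor, a growth kinase, for miR-99/100, and Lin28, which blocks let-7 maturation, for miR-125.

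The targets of 9 members are shown because their likeness bears on how far the probes are independent. Capitals mark the seed, bases 2 to 8 from the 5′ end.
rno-miR-10a-5p: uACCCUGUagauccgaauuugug
rno-miR-10b: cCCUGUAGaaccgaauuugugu
rno-miR-99a: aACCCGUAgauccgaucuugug
rno-miR-99b: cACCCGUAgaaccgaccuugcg
rno-miR-100: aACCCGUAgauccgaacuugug
rno-miR-125a-5p: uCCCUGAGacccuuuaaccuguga
rno-miR-125b-5p: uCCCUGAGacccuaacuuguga
rno-miR-196a: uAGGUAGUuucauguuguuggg
rno-miR-196b: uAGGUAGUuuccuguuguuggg
The seed was shared by 3 members in miR-99a, miR-99b and miR-100, by 2 in miR-125a-5p and miR-125b-5p, and by 2 in miR-196a and miR-196b. With positions counted from 1 at the 5′ end of the first sequence, miR-100 and miR-99a differed by A16U alone, and miR-196a and miR-196b by A12C alone. The miR-99b target differed from that of miR-99a at 4 positions. The target of rno-miR-10b on this array began 2 bases further in than that of rno-miR-10a-5p. Over the 21 bases they share, the pair differed by U12A, in the numbering of miR-10a-5p. The seed marked for miR-10b follows from the base at which this target begins. The hsa-miR-10b target on the same array has the same bases 2 to 8 as that of miR-10a-5p. The miR-125a-5p and miR-125b-5p targets had their first 13 bases in common. How far the probe of one member took up the RNA of another was not tested.

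In RefSeq, 11 of the 12 targets were identical to a mature rat miRNA, here placed on GRCr8. The miR-10a-5p sequence lies at chr10:81779730-81779752 on the plus strand, between Hoxb5 and Hoxb4. The array's miR-10b target lies at chr3:80035886-80035907, plus strand, inside the annotated span of Hoxd4. That of miR-196a lies at chr7:135988900-135988921, plus strand, between Hoxc10 and Hoxc9, and that of miR-196b at chr4:82661149-82661170, minus strand, between Hoxa9 and Hoxa10. On chromosome 1 the genes Mir99b, Mirlet7e and Mir125a span 696 bases, with miR-99b at chr1:67350070-67350091 and miR-125a-5p at chr1:67350689-67350712, both on the plus strand and within Spaca6. On chromosome 8 the genes Mir100, Mirlet7a-2 and Mir125b1 span 51.8 kb, with miR-100 at chr8:50798307-50798328 on the plus strand. On chromosome 11 the genes Mir99a, Mirlet7c1 and Mir125b2 span 45.3 kb, with miR-125b-5p at chr11:29732588-29732609 on the plus strand. Both Mir125b genes carry the 5p arm named miR-125b-5p, so its probe reads the chromosome 8 and chromosome 11 clusters together.

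One array stood apart. AA replicate 20 was the dimmest, with a mean probe signal of 149 above the empty spots against 263 to 484 on the others, and the share of tested probes well above background (the empty-spot median plus 3 robust SDs) was 66.8% there against 84.9% to 97.9%. Across the tested probes, Pearson's r of AA replicate 20 with the other arrays was 0.818 to 0.867, and 0.937 to 0.988 for pairs without it. Probes share the array and are not independent replicates. The probe of rno-miR-122, the defining miRNA of liver cells, had a deposited value of 15191 on AA replicate 20 and of 8.17 to 48.5 on the other 5 arrays. Of the 6 markers fixed for other tissues, 4 (miR-1, miR-9, miR-124 and miR-133a) stayed under 32 on every array. The remaining marker, miR-206, was over 32 on all 6 arrays. Its deposited value was 392, 511 and 188 on the control arrays and 66.1, 599 and 344 on AA replicates 19, 20 and 21. The summed deposited level of these 6 markers was 15799 on AA replicate 20, 98.3 and 374 on the other AA arrays and 230.4 to 577 on the control arrays. The part of liver RNA in the results on AA replicate 20 was not tested. Each result is therefore given with all 6 arrays and without AA replicate 20.

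The kidney label was checked against its markers. Of 10 kidney epithelium miRNAs, 8 reached 32 on at least 1 array, and miR-204 and miR-215 did not.

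AA was compared with control to ask whether these miRNAs differed after treatment. No member passed the test, with or without AA replicate 20. With all arrays, 4 of the 10 tested members had a mean above that of control. Without AA replicate 20, 10 of 10 did, by 0.09 to 0.66 on the log2 scale. Among these, miR-196b entered the test through AA replicate 19 alone. Of all tested probes 45.8% were higher in AA with all arrays and 49.1% without AA replicate 20, and of the tested rat probes 52.8% and 64.0%. The median change of the Hox-linked and that of the let-7-linked members were both higher when that array was left out.

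With all 6 arrays, 0 of 10 members passed an adjusted p of 0.05 in limma, against 2 of 1132 probes (0.177%). At an unadjusted p under 0.05 the count was 0 of 10 members, against 56 probes (4.95%), and the methods' t-test gave 0 members at the same threshold, before and after adjustment. The groups did not overlap for 0 of 10 members, against 113 probes (9.98%). The median log2 change of the tested members was -0.17 and that of all tested probes -0.05. The adjusted p of the members in limma lay between 0.885 and 0.966. With 3 arrays a group, no two-sided exact permutation test can give a p below 0.10.

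Without AA replicate 20, 0 of 10 members passed the adjusted threshold in limma, against 3 of 1100 probes (0.273%). At an unadjusted p under 0.05 there was 1 of 10, miR-100, against 7.55% of probes. The groups did not overlap for 2 of 10 members, miR-100 and miR-10a-3p, both higher in AA, against 26.8% of probes. For miR-10a-3p the nearest values of the groups were 6.82 in control and 6.84 in AA after these 5 arrays were normalized on their own. The median log2 change of the members was 0.26, that of all tested probes -0.0063 and that of the tested rat probes 0.17. All 10 tested members were higher in AA on these 5 arrays under each of the 7 scalings tried, which share their arrays, although their medians ran from 0.23 to 0.52. In this count miR-196b was tested only through an AA array, so its direction there is not independent of the filter. With all 6 arrays the number of members higher ran from 0 with no normalization, where the median of all tested probes was -0.32, to 5 under cyclic loess.

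**Figure D1:**
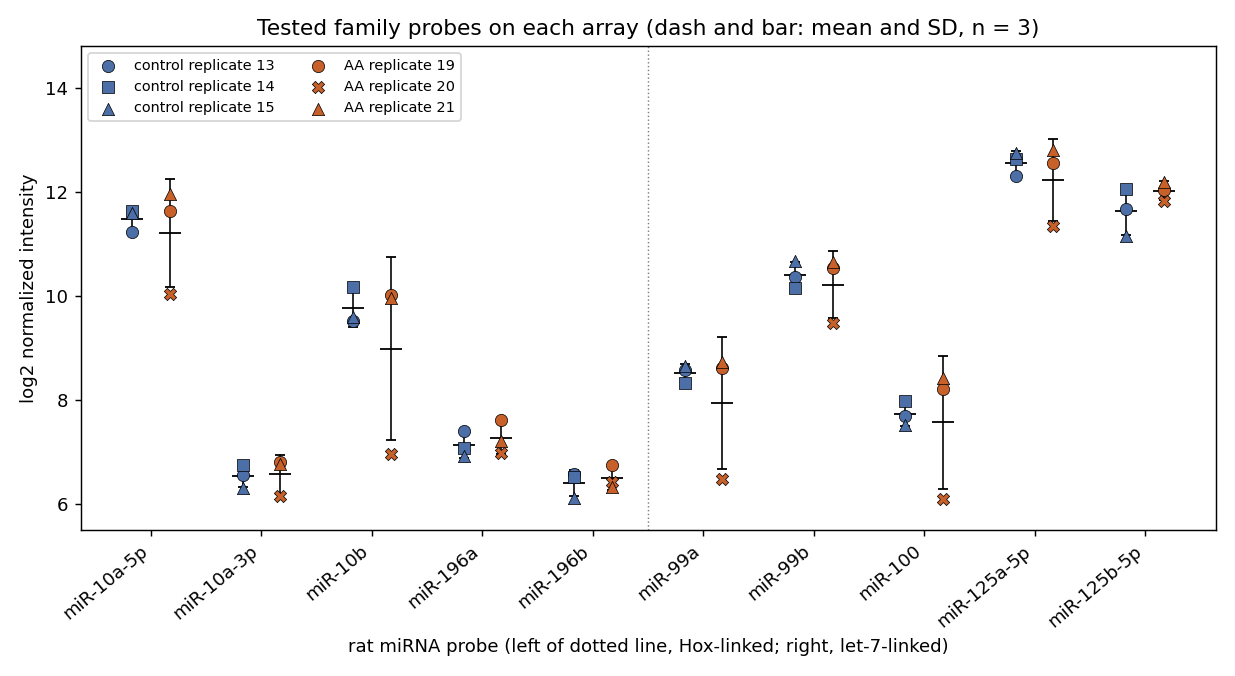
Log2 normalized intensity of the 10 tested members on each array, with 3 control and 3 AA arrays side by side, and the mean and SD of each group (n = 3). AA replicate 20, marked by a cross, lies below the 5 other arrays for 7 of the 10 members, while AA replicates 19 and 21 lie near or among the control arrays.

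Among the Hox-linked members, miR-10b had the largest log2 change with all 6 arrays, through AA replicate 20, and without it lay below miR-196a and both arms of miR-10a. As log2 normalized intensity, its probe read 9.52, 10.17 and 9.59 in control animals 13, 14 and 15, and 10.02, 6.95 and 9.96 in AA animals 19, 20 and 21. AA replicate 20 lay far below the 5 other arrays, and AA replicates 19 and 21 lay between the highest and lowest control array. The log2 change was -0.78 (SE 0.80, limma adjusted p = 0.885), with a 95% interval from -2.67 to 1.10. Without AA replicate 20 it was 0.24 (SE 0.29, limma adjusted p = 0.828).

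The miR-10a-5p probe, for the guide arm of miR-10a, read 11.21, 11.63 and 11.58 on the control arrays and 11.63, 10.02 and 11.95 on AA replicates 19, 20 and 21. AA replicate 20 was again the lowest, and AA replicate 21 the highest. The log2 change was -0.27 (SE 0.51, limma adjusted p = 0.918), and 0.31 (SE 0.26) without AA replicate 20. The opposite arm, miR-10a-3p, was dim. It reached 32 on 3 arrays and read 6.30 to 6.75 on the control arrays and 6.80, 6.14 and 6.76 on the AA arrays. Its log2 change was 0.03 (SE 0.29), and 0.28 without AA replicate 20.

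For miR-196a the probe read 7.40, 7.08 and 6.91 on the control arrays and 7.60, 6.97 and 7.21 on the AA arrays. The groups overlapped, and AA replicate 20 lay between the control arrays. The log2 change was 0.13 (SE 0.29, limma adjusted p = 0.921), and 0.32 (SE 0.28) without AA replicate 20. The miR-196b probe reached 32 on 1 array only, AA replicate 19, and read 6.11 to 6.57 in control and 6.32 to 6.73 in AA. It was well above background on 3 arrays only, control replicates 13 and 14 and AA replicate 19. Its log2 change was 0.09 (SE 0.27), and 0.15 without AA replicate 20, with the other values at background. The cfa-miR-196b probe, named for another species, has a target with 1 base more and reached 32 on control replicate 14 alone. Its log2 change without AA replicate 20 was -0.10.

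Among the let-7-linked members, miR-99a and miR-100 were also lowest on AA replicate 20. The miR-99a probe read 8.56, 8.31 and 8.65 on the control arrays and 8.61, 6.47 and 8.73 on AA replicates 19, 20 and 21. The miR-100 probe, whose target differs from it by 1 base, read 7.69, 7.97 and 7.50 and then 8.20, 6.09 and 8.41. On AA replicate 20 neither was well above background, with a scanner intensity of 86.8 and 81.6 against a limit of 89.3, so each value there is only a bound. AA replicate 21 lay above every control array for both, and AA replicate 19 for miR-100 alone.

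With all arrays the log2 change of miR-99a was -0.57 (SE 0.60, limma adjusted p = 0.885). That of miR-100 was -0.15 (SE 0.60, limma adjusted p = 0.942). Without AA replicate 20 the change of miR-99a was 0.18 (SE 0.24). That of miR-100 was 0.66 (SE 0.26), with a 95% interval from 0.03 to 1.29, the largest of the 10 members. Its unadjusted p in limma was 0.0419, the correction left it at an adjusted p of 0.602, and 2 of 2 remaining AA arrays lay above every control array. The mdo-miR-100 probe, named for another species, has the same target without its last base. Its log2 change without AA replicate 20 was 0.12 (SE 0.25), with a 95% interval from -0.47 to 0.70.

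The miR-99b probe, for the member of this seed group that starts with another base, read 10.36, 10.14 and 10.66 on the control arrays and 10.53, 9.46 and 10.64 on the AA arrays. Its log2 change was -0.18 (SE 0.38, limma adjusted p = 0.921), and 0.20 (SE 0.26) without AA replicate 20. The miR-125a-5p probe, for the neighbour of miR-99b in the chromosome 1 cluster, read 12.31, 12.62 and 12.75 and then 12.54, 11.33 and 12.80. Both neighbours were lowest on AA replicate 20 and otherwise overlapped between the groups. The log2 change of miR-125a-5p was -0.33 (SE 0.42, limma adjusted p = 0.885), and 0.09 (SE 0.24) without AA replicate 20.

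The miR-125b-5p probe departed from this pattern on AA replicate 20. It read 11.67, 12.05 and 11.15 on the control arrays and 12.03, 11.83 and 12.19 on AA replicates 19, 20 and 21. After normalization AA replicate 20 thus lay between the control arrays, and the lowest array was control replicate 15. In scanner intensity AA replicate 20 was the lowest, at 880 against 2522 to 8436 on the others. The log2 change was 0.39 (SE 0.31, limma adjusted p = 0.885), and 0.47 (SE 0.32) without AA replicate 20.

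On control replicate 15 the spots of miR-125b-5p disagreed, at a scanner intensity of 891 and 4154. This was the only one of 72 pairs of a member and an array whose spots lay more than 1 apart on the log2 scale. With the brighter spot alone, an alternative chosen after seeing the data, the log2 change was 0.06 (SE 0.26, limma adjusted p = 0.945). In the deposited normalized values the probe read 3364, 4173 and 4013 on the control arrays and 4043, 3727 and 4871 on the AA arrays.

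The untested members were the 3p arms of miR-125a and miR-125b. The miR-125a-3p probe stayed under 32 on every array, although it was well above background on 5 arrays, and read 6.06 to 6.54. On no array was the miR-125b-3p probe well above background.

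**Figure D2:**
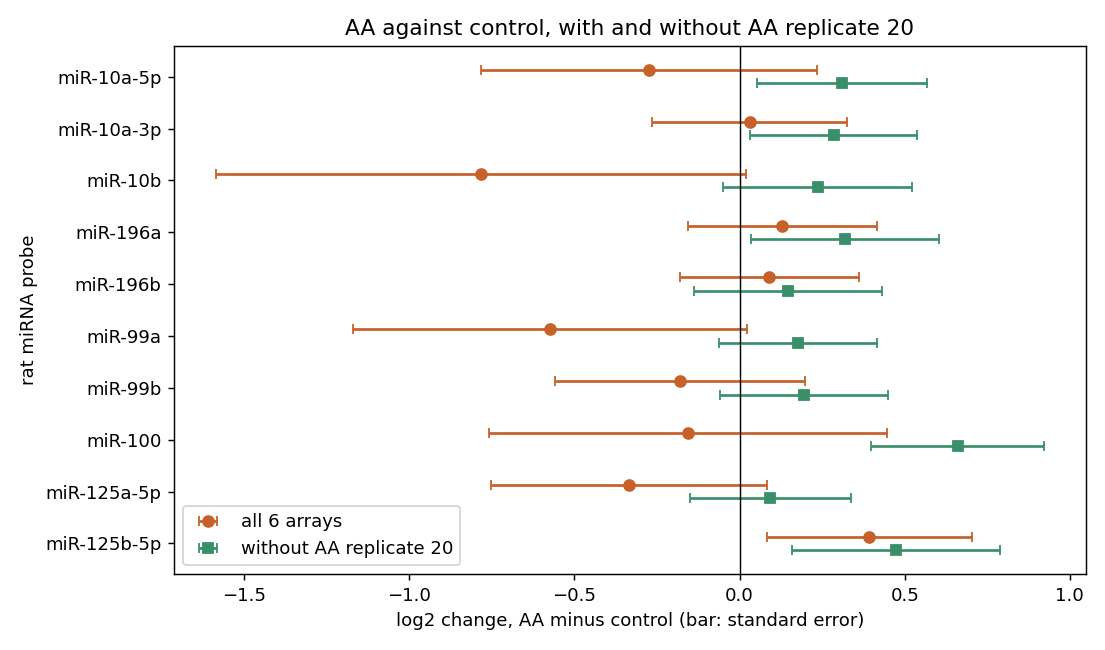
Log2 change of the 10 tested members, AA minus control, with all 6 arrays (circles) and without AA replicate 20 (squares), each with its standard error from limma. With all arrays the changes run from -0.78 (miR-10b) to 0.39 (miR-125b-5p), and without AA replicate 20 all 10 lie above 0, from 0.09 (miR-125a-5p) to 0.66 (miR-100).

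The distance of AA replicate 20 from the control mean differed between members. That array was lower than the control mean by more than 1 on the log2 scale for 5 of 10 members (50%), against 17.4% of all tested probes and 16.7% of tested rat probes. It was the lowest of the 6 arrays for 7 of 10 members (70%), against 46.5% and 48.3%. A probe near background has little room to fall, and these shares were not matched for brightness. Among members well above background there, the difference from the control mean was -2.81 for miR-10b, -1.45 for miR-10a-5p, -1.22 for miR-125a-5p, -0.93 for miR-99b, -0.16 for miR-196a and 0.20 for miR-125b-5p. With the brighter spot alone on control replicate 15, the control mean of miR-125b-5p was 11.95, above its 11.83 on AA replicate 20. For miR-10b and miR-196a the scanner intensity there was 96.1 and 96.4, close to the limit of 89.3. The other 4 tested members were not well above background on that array. For them the value there was taken as the higher of the probe's own value and 6.34. The latter is the lowest log2 value of a probe well above background on that array. The difference was thus -2.04 or lower for miR-99a, -1.38 or lower for miR-100 and -0.19 or lower for miR-10a-3p. For miR-196b it was 0.0098, which is no bound, since its probe was not well above background on control replicate 15 either. The cfa-miR-99a and mdo-miR-100 probes, whose targets lack only the last base of the rat ones, were well above background on all 6 arrays. On AA replicate 20 they lay at -0.82 and -1.98 from their control means, with a scanner intensity of 119.7 and 90.9 against the limit of 89.3. Before normalization the median difference from the control mean on AA replicate 20 was -2.30 on the log2 scale over the tested members and -0.62 over all tested probes. These medians were not matched for brightness either. On this array 6 of the 12 members were well above background, against 10 or 11 on the others.

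The Hox-linked and the let-7-linked members were compared as differences within an array, since the signals of different probes depend on the probe as well as on the amount of miRNA. The median log2 change was 0.03 over the 5 Hox-linked members and -0.18 over the 5 tested let-7-linked members with all arrays. Without AA replicate 20 it was 0.28 and 0.20. The mean of the Hox-linked members minus that of the let-7-linked members was -1.87, -1.79 and -2.04 for control animals 13, 14 and 15. For AA animals 19, 20 and 21 the same difference was -1.82, -1.74 and -2.11. The values of the groups interleaved, but 4 of the 10 probes behind them were not well above background on AA replicate 20, so these means cannot show how that array differed. Over the 3 Hox-linked and 3 let-7-linked probes well above background on every array, chosen after seeing the data, the difference was -2.07, -1.98 and -2.16 for control and -1.95, -2.89 and -2.17 for AA. There AA replicate 20 lay below the 5 other arrays, and the AA mean minus the control mean was -0.27 with it and 0.0091 without it. On AA replicate 20 the Hox-linked probes of miR-10b and miR-196a were close to the background limit. Over all 10 tested members the AA mean of this difference minus the control mean was 0.0085, under the 0.17 SD between replicates, and -0.06 without AA replicate 20. It was 0.30 in the deposited values, 0.19 with subtraction of the empty-spot median and -0.20 with array quality weights, so neither group of members was set higher or lower by every processing.

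The let-7 miRNAs, which slow growth and hold cells differentiated, were read beside them as let-7a, let-7c and let-7e of the same clusters and let-7b of another. Their log2 changes were 0.18 to 0.28 with all arrays and 0.22 to 0.29 without AA replicate 20, with 0 of 4 past the adjusted threshold and 0 at an unadjusted p under 0.05 in limma. On AA replicate 20 let-7a lay 0.05 above its control mean where miR-100 lay at -1.38 or lower. On the same array let-7c lay 0.24 above its control mean where miR-99a lay at -2.04 or lower, and let-7e 0.0053 above where miR-99b and miR-125a-5p lay at -0.93 and -1.22. These differences between neighbours rest on 1 array and on normalized values. The cfa-miR-99a probe lay at -0.82 there. In scanner intensity let-7a, let-7c and let-7e were also lowest on AA replicate 20, at 22601, 18509 and 8895. The other arrays read 24878 to 39339, 20660 to 31436 and 12681 to 24063. The miR-99b and miR-125a-5p probes read 193 and 629 on AA replicate 20, against 1243 to 3535 and 6244 to 10867 on the others. The let-7a and let-7c probes also read let-7 genes outside these clusters.

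**Figure D3:**
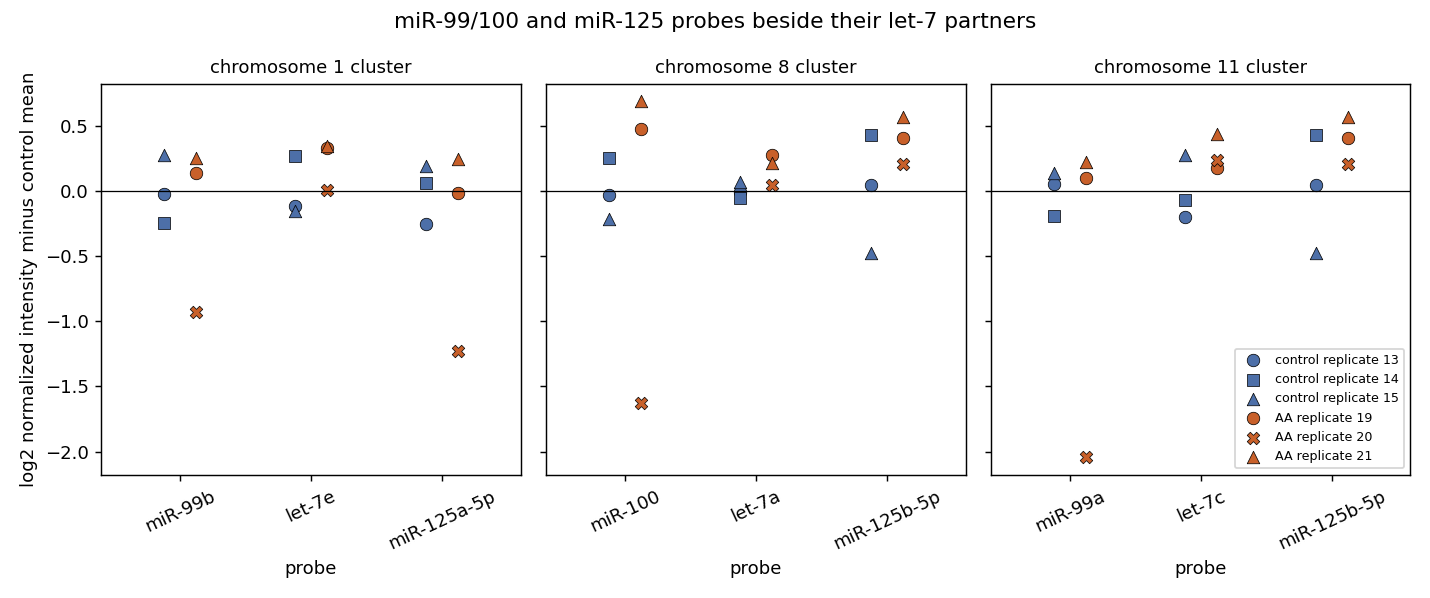
Log2 normalized intensity on each array minus the control mean of that probe, for the miRNAs of the chromosome 1, 8 and 11 clusters, with control and AA arrays as points. On AA replicate 20 (cross) the miR-99/100 probes and miR-125a-5p lie at -0.93 to -2.04 (miR-99a and miR-100 not well above background there) while the let-7 probes lie at 0.0053 to 0.24 and miR-125b-5p, drawn in both clusters that carry it, at 0.20. The control mean of miR-125b-5p includes the spots of control replicate 15 that disagreed. In scanner intensity these let-7 probes were also lowest on AA replicate 20.

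The other strands of these hairpins and the remaining miRNAs of the Hox clusters were covered by 10 further rat probes, the star strands, miR-196c and miR-615. Of these 3 were tested, and limma called 0, before adjustment as after it. The miR-99b* probe was dim and reached 32 on control replicate 13 alone, at 33.0, so it was tested through the group where it was higher. The log2 change was -0.30 for miR-99b* and -0.08 for miR-10b*, with a standard error of 0.25 and 0.27. For miR-196c* it was 0.31 (SE 0.66) and, without AA replicate 20, -0.45 (SE 0.45). The miR-196c* probe read 8.68, 8.90 and 9.31 on the control arrays and 7.91, 10.70 and 9.21 on AA replicates 19, 20 and 21. After normalization miR-196c* was thus highest on the array where miR-10b, miR-99a and miR-100 were lowest. The scanner intensity of this probe, by contrast, ranged from 390 to 940 and had its minimum on AA replicate 20.

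The array also held 26 probes of other species with the same miRNA names, whose targets differ from the rat ones. Of these 17 were tested and 0 passed in limma (0 before adjustment as well). Of the 17, 15 were lower in AA with all arrays, with a median log2 change of -0.21, and 5 without AA replicate 20, with a median of 0.12. They can bind the same rat miRNAs and are not independent of the members. The log2 change of the hsa-miR-10b probe was -0.82 with all arrays and -0.56 without AA replicate 20, where it rests on AA replicate 21. On that array its spots disagreed, at a scanner intensity of 3155 and 212, and its deposited value, 2960, was the highest of the 6 arrays.

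The 3 rat probes whose pattern over the 6 arrays was most like that of rno-miR-10b were rno-miR-30b-5p, rno-miR-27a and rno-miR-30a. The likeness was measured as the root mean square difference of the centred log2 values over the 6 arrays, and was 0.28, 0.35 and 0.39 for them, against a median of 1.03 over 170 candidate rat probes. All of them were lowest on AA replicate 20, at -1.91, -2.79 and -1.93 from their own mean over the arrays. Their choice by likeness to rno-miR-10b, itself far lowest on that array, favours this. Within the family the nearest were miR-99a (0.43) and miR-100 (0.44), and the farthest was miR-125b-5p (1.11).

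Markers of kidney cell types moved unevenly on the same array. Of the 8 tested kidney epithelium miRNAs, miR-30a lay at -2.18, miR-194 at -1.43 and miR-30c at -1.42 from the control mean on AA replicate 20. There miR-192 lay at -0.74 and miR-429 at -0.53, while miR-200a, miR-200c and miR-200b lay at 0.74, 0.50 and 0.29. After normalization miR-200b was higher there than on any control array. Its scanner intensity was lowest there, at 633 against 1945 to 5604 on the others. The summed deposited level of all 10 probes of that list was 9244 on AA replicate 20, 14324 and 16069 on the other AA arrays and 12525 to 14424 on the control arrays. The endothelial miR-126 read 9.04 on AA replicate 20 and 10.49 to 10.94 on the other arrays. Over all arrays 0 of 8 epithelial probes passed, with 1 (miR-194, -0.82) at an unadjusted p under 0.05 in limma.

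The 5 myofibroblast and vessel wall probes were all higher in AA, with a median log2 change of 0.43 (0.73 without AA replicate 20). Of these 0 passed, with 2 (miR-199a-3p and miR-214) at an unadjusted p under 0.05 in limma. Their summed deposited level was 2520 to 3794 on the control arrays and 3483 to 4973 on the AA arrays. Among 4 leukocyte probes, miR-142-3p, miR-142-5p and miR-223 were under 32 on every array, and the summed level was 323 to 525 in control and 516 to 576 in AA. The erythrocyte probes summed to 51.3 to 66.3 in control and to 75.7, 8.36 and 17.5 on AA replicates 19, 20 and 21, with miR-144 under 32 throughout. The part of these cell types in the members' values was not tested.

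**Figure D4:**
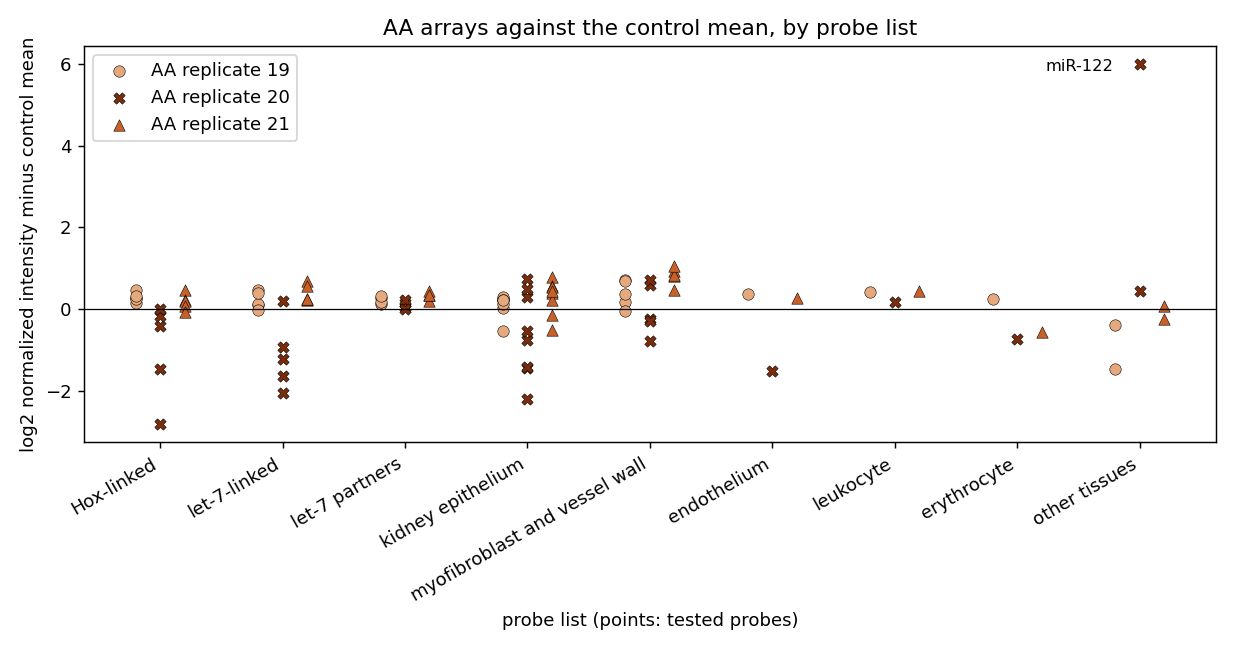
Log2 normalized intensity on each AA array minus the control mean, for the tested probes of each list, with 1 point per probe. AA replicate 20 (crosses) spreads from -2.81 to 0.20 over the tested family members and reaches 5.99 for miR-122, while AA replicates 19 and 21 stay closer to 0 for the family. The 0.20 is that of miR-125b-5p, whose spots disagreed on control replicate 15.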

How the data were processed

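Kidney miRNA of 3 control and 3 AA rats was measured on custom 1-colour vertebrate miRNA arrays. The deposited scanner files give, per the file headers, a linear median intensity for each of 15066 spots, before any correction or normalization. A second deposited file holds the authors' normalized intensity of 5559 of 5560 probes, made by background subtraction and a LOWESS filter. Its values are linear, and the LOWESS reference is not given in the sources used here.

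Scanner intensity was corrected with normexp (offset 50, all spots), log2-transformed and quantile-normalized, and spots of a probe were averaged. Control and empty spots were left out after normexp. A probe was tested when its deposited value reached 32 on at least 1 array, and was called well above background above the empty-spot median plus 3 robust SDs. AA was compared with control by limma 3.58.1 (lmFit, eBayes) in R 4.3.3, with Benjamini-Hochberg adjustment over all 1132 tested probes at a threshold of 0.05. The code was tested on simulated data. Intervals are at 95%. Deposited values were used as log2 after a pseudocount of 1. Nothing says more than that each array is 1 animal, so p-values measure the spread between these samples. Precision is limited by how many arrays there are and by how far a probe stands above background.

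Alternatives covered background correction, normalization, the deposited values, the filter, array weights, spot averaging, the prior, the methods' t-test and leaving out each replicate. No slide or scan was named in labels or files, so neither could serve as a block. The text names every family probe, its let-7 partners, the star strands, miR-196c and miR-615, and the 3 rat probes most like the member with the largest change. Names from the marker lists and the probes hsa-miR-10b, mdo-miR-100, cfa-miR-99a and cfa-miR-196b were chosen after their values were seen. The members and lists were chosen with earlier results of these data known.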

Additional observations from a re-analysis of the deposited data

How the results depend on the processing

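The number of members past the adjusted threshold was 0 under every alternative run, in limma or in the methods' t-test, so the limits concern directions. The members' adjusted p in limma ran from 0.421 to 0.994. This range leaves out the changed filters, the changed prior and the t-test, for which it was not recorded by member. The alternatives that combine the deposited values with leaving out AA replicate 20, the brighter spot of miR-125b-5p and the counts of members higher under each scaling were chosen after seeing the data. Over all probes, the 2 calls became 44 with array quality weights, where the weight of AA replicate 20 was 0.124, and 0 with no normalization, with median scaling or with cyclic loess, and 0 to 3 over the arrays left out in turn, with 3 without AA replicate 20. The median change of the Hox-linked members ran from -0.09 to 0.28 and that of the let-7-linked members from -0.60 to 0.20 over these leave-outs. Their mean difference moved from 0.0085 to 0.19 with subtraction of the empty-spot median, 0.30 in the deposited values, -0.20 with array quality weights and -0.27 over the probes well above background on every array, which was also chosen after seeing the data. It ran from -0.06 to 0.12 over the leave-outs. The median change of all tested probes was -0.26 under median scaling, -0.32 with no normalization, -0.17 in the deposited values and -0.13 with subtraction, and the changes there include this shift.

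Signs turned as follows, and the cause was not tested. Under cyclic loess miR-100 became 0.28. Under median scaling miR-10a-3p became -0.012, miR-125b-5p -0.19 and miR-196a -0.041. With no normalization these became -0.080, -0.26 and -0.11, and miR-196b -0.051. In the deposited values miR-10a-3p became -0.18. With array quality weights miR-100 became 0.41, miR-10a-5p 0.31, miR-125a-5p 0.16, miR-99a 0.19, miR-99b 0.32 and miR-196b -0.10. Over the arrays left out in turn the log2 change ran from -0.61 to 0.66 for miR-100, from -0.64 to 0.31 for miR-10a-5p, from -0.60 to 0.093 for miR-125a-5p, from -0.99 to 0.18 for miR-99a, from -0.38 to 0.20 for miR-99b and from -1.28 to 0.24 for miR-10b. All 6 maxima were without AA replicate 20. It ran from -0.086 to 0.28 for miR-10a-3p, from -0.055 to 0.18 for miR-196b and from -0.034 to 0.32 for miR-196a. In the deposited values without AA replicate 20, miR-100 was 0.79, miR-10a-5p 0.30, miR-125a-5p 0.11, miR-99a 0.26, miR-99b 0.063 and miR-10b 0.16. No paired analysis was possible because the groups share no replicate number.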
